A study of Mus musculus with 12 samples.

Results

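Open chromatin was mapped by ATAC-seq in natural killer (NK) cells of the mouse spleen, and the regions described here are those whose peak calls followed the genotype in stimulated and in resting cells alike. Every library's list was cut to the length of the shortest, keeping its strongest intervals on chromosomes 1 to 19, X and Y by deposited q value. Kept intervals that overlapped by 1 bp or more were joined across the 12 libraries, which gave 51701 regions. A region counts as called in a library if any kept interval of that library touches it. Members are the 228 regions in which the number of calling knockout (KO) libraries and the number of calling wild-type (WT) libraries, out of 6 each, differed by 5 or more. Of these, 125 were called in more KO libraries (KO-high, 0.242% of all regions) and 103 in more WT libraries (WT-high, 0.199%). The genotype contrast chose the members, so their calls and ranks are given as a description, with no test between genotypes.

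The 4 groups held 3 libraries each: KO cells stimulated with IL-12/18 (KO_Sti), KO cells left as controls (KO_Ctl), WT cells stimulated with IL-12/18 (WT_Sti) and WT control cells (WT_Ctl). KO cells carried the Reg-1ΔNK genotype, a deletion of Regnase-1 in the NK lineage, and WT cells the floxed Reg-1fl/fl genotype. Every library was made from 100000 cells. The Cre driver, the age of the animals and whether the 3 libraries of a group came from separate animals are not given in the sources used here, so the spread between libraries may be technical.

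ATAC-seq uses a transposase that cuts and tags DNA not covered by nucleosomes, so that a pile of fragments marks an accessible promoter, enhancer or other site. Regnase-1, encoded by Zc3h12a, is a nuclease that cuts stem-loops in the messenger RNAs of inflammatory genes. NK cells respond to IL-12 through STAT4 and to IL-18 through the MyD88-IRAK cascade, and the combination drives production of interferon gamma.

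Few members covered the start of a gene, and the promoters that did are the sequences the data bear on most directly. Shown are the starts of 3 genes in KO-high regions, namely Tnfrsf13b (TACI, a receptor for the B cell survival factors BAFF and APRIL), Bhlha15 (MIST1, a transcription factor of secretory cells) and Ptgs2 (cyclooxygenase 2, which makes prostaglandin precursors). The fourth is the predicted gene Gm32051, whose start lies in a WT-high region with no deposited peak in any KO library. Each sequence runs 5′ to 3′ on the gene's own strand, 250 bases before the start and 50 after it, from RefSeq on GRCm38.p6, the assembly behind mm10. Capitals mark matches on either strand to a kappaB-type motif (GGGA, any 4 bases, then CC) in Tnfrsf13b and Bhlha15, and to a CEBP-type motif (TTGCGCAA) and an E-box (CACGTG) in Ptgs2.
Tnfrsf13b (chr11:61126505-61126804, + strand): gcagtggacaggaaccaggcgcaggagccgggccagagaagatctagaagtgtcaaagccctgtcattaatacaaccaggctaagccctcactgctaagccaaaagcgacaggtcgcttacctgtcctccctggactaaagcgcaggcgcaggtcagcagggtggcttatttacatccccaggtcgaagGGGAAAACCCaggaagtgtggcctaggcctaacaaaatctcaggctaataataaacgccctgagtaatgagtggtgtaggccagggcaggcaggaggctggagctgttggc
Bhlha15 (chr5:144190036-144190335, + strand): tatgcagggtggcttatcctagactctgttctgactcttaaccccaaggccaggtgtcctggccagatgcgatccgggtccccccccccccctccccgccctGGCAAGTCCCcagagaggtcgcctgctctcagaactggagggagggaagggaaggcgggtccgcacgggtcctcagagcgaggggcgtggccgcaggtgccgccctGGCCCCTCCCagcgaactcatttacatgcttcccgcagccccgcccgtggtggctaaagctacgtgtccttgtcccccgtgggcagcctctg
Ptgs2 (chr1:150099781-150100080, + strand): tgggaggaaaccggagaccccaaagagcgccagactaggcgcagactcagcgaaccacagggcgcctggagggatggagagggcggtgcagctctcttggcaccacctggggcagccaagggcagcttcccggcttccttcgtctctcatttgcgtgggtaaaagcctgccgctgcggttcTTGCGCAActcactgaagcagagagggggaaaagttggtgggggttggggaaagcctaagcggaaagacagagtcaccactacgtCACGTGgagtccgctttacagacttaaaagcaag
Gm32051 (chr5:105409098-105409397, + strand): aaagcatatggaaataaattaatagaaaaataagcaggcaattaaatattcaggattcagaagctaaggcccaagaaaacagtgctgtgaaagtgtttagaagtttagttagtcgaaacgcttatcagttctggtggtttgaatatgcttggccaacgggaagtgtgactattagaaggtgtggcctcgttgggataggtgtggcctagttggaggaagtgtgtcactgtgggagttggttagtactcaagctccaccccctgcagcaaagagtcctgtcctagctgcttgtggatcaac

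The single kappaB-type match of Tnfrsf13b begins at base 190 of the printed window, and the 2 matches of Bhlha15 begin at bases 103 and 209. In Ptgs2 the CEBP-type match begins at base 182 and the E-box at base 267. Gm32051 held no match to any of the 6 motifs searched. Of the 32851 mouse promoters of the same length in the RefSeq table, 20.7% held a kappaB-type match, 7.15% the E-box and 0.183% the CEBP-type letters. An AP-1 motif (TGANTCA) occurred in 7.81%, an octamer (ATGCAAAT) in 1.74% and a CRE (TGACGTCA) in 1.79%, and none of these 3 was found in the 4 windows. Windows not printed did hold them: the octamer at KO-high Gm21814 and Gm52564, and AP-1 at KO-high Gm32011 and WT-high Gm29854. A CRE lay at Mir9-3hg, whose window overlaps a KO-high region by 79 bp. KappaB-type matches also lay at KO-high Gm32011 and LOC115486907. Stc2, Abr and Gm21190 (KO-high) and Gm35290 (WT-high) held no match to any of the 6 motifs. The E-box and CEBP motifs were added to the search after the Ptgs2 sequence had been read. A match is a description of letters and not a measured binding site. The start of the antisense transcript Ptgs2os lies in the same KO-high region as that of Ptgs2, and ATAC-seq cannot tell the 2 starts apart.

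The libraries differed in ways that touch the calls. Deposited lists held the fewest distinct intervals in KO_Sti replicate 1 and 42543 and 54303 in the other two KO_Sti libraries, 46971 to 53258 in KO_Ctl, 55146 to 63128 in WT_Sti and 42520 to 53440 in WT_Ctl. The weakest interval kept had a deposited −log10 q of 1.31 in KO_Sti replicate 1 and between 4.6 and 27.05 in the other 11 libraries. The highest deposited fold, a peak on chromosome 2, was 5995.7 to 7138.3 in KO libraries and 4804.6 to 5540.6 in WT libraries. The part of list length and of this peak in the genotype calls was not tested. Of the 8 regions nearest to Zc3h12a (4:125118414-125127881), 6 were called in all 12 libraries, among them the 1 that overlaps the gene. In the full lists, the region at 4:125117670-125118634, which also overlaps the gene, at its lower coordinate, held a peak in 0 KO and in 6 WT libraries. Which exons were deleted is not known here. The nearest member lay 4397422 bp from Zc3h12a. All 10 NK markers examined, Ncr1, Eomes and Gzmb among them, had a call in all 12 libraries. Calls in all 12 were also seen at 3 of 5 T, 2 of 4 B, 1 of 4 myeloid, 1 of 3 erythroid and 3 of 5 other innate lymphoid cell markers, while Cd8a, Ms4a1, Lyz2, Csf1r, Adgre1 and Hba-a1 had a call in none, and no member fell on these markers.

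**Figure D1:**
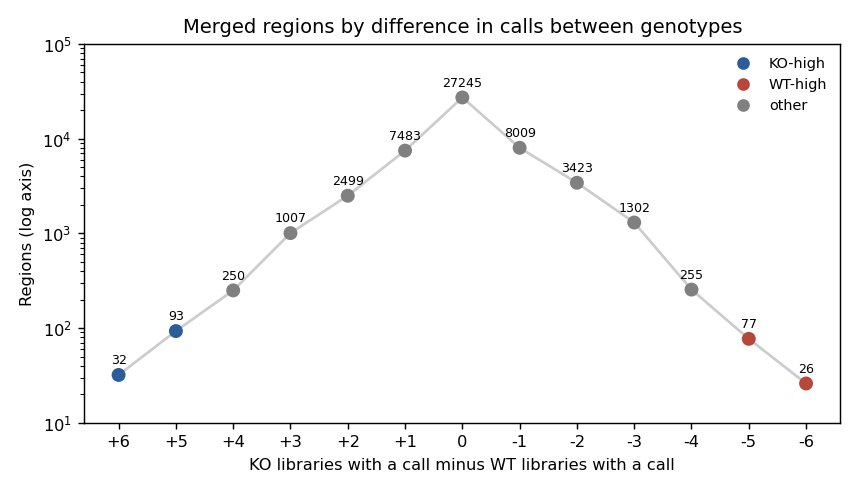
Number of merged regions (log axis) by the number of KO libraries with a call minus the number of WT libraries with a call, out of 6 each. Members are the coloured ends, 32 and 93 regions at differences of 6 and 5 in favour of KO, and 26 and 77 in favour of WT, against 27245 regions with no difference.

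The members were the tails of a distribution centred on no difference, which the plot of regions by difference in calls shows. KO-high regions split into 32 called in 6 KO and 0 WT libraries, 28 called in 6 and 1, and 65 called in 5 and 0. WT-high regions split into 26 called in 0 KO and 6 WT libraries, 38 called in 1 and 6, and 39 called in 0 and 5. Just outside the threshold, at a difference of 4, lay 250 regions higher in KO and 255 higher in WT. Membership turned on the length of the lists: in the full deposited lists 65 regions were KO-high and 238 WT-high, and 12 KO-high and 21 WT-high members still met the rule. Without KO_Sti replicate 1, at a difference in the share of calling libraries of at least 0.8, 193 regions were KO-high and 142 WT-high. Grouping the same libraries by treatment with the same rule gave 2973 regions called more often in stimulated cells (5.75%) and 2323 called more often in control cells (4.49%).

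In each KO_Sti library 103, 121 and 116 of the 125 KO-high regions were called, and in each KO_Ctl library 115, 121 and 109. WT_Sti libraries called 5, 4 and 7 of them and WT_Ctl libraries 6, 3 and 3. Of the 103 WT-high regions, KO_Sti libraries called 6, 4 and 8, KO_Ctl libraries 6, 6 and 8, WT_Sti libraries 99, 100 and 97 and WT_Ctl libraries 88, 97 and 98. By the rule, no member could rest on 1 treatment. KO_Sti replicate 1 missed the most KO-high regions of any KO library, and WT_Ctl replicate 1, the shortest WT list, missed the most WT-high regions of any WT library.

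**Figure D2:**
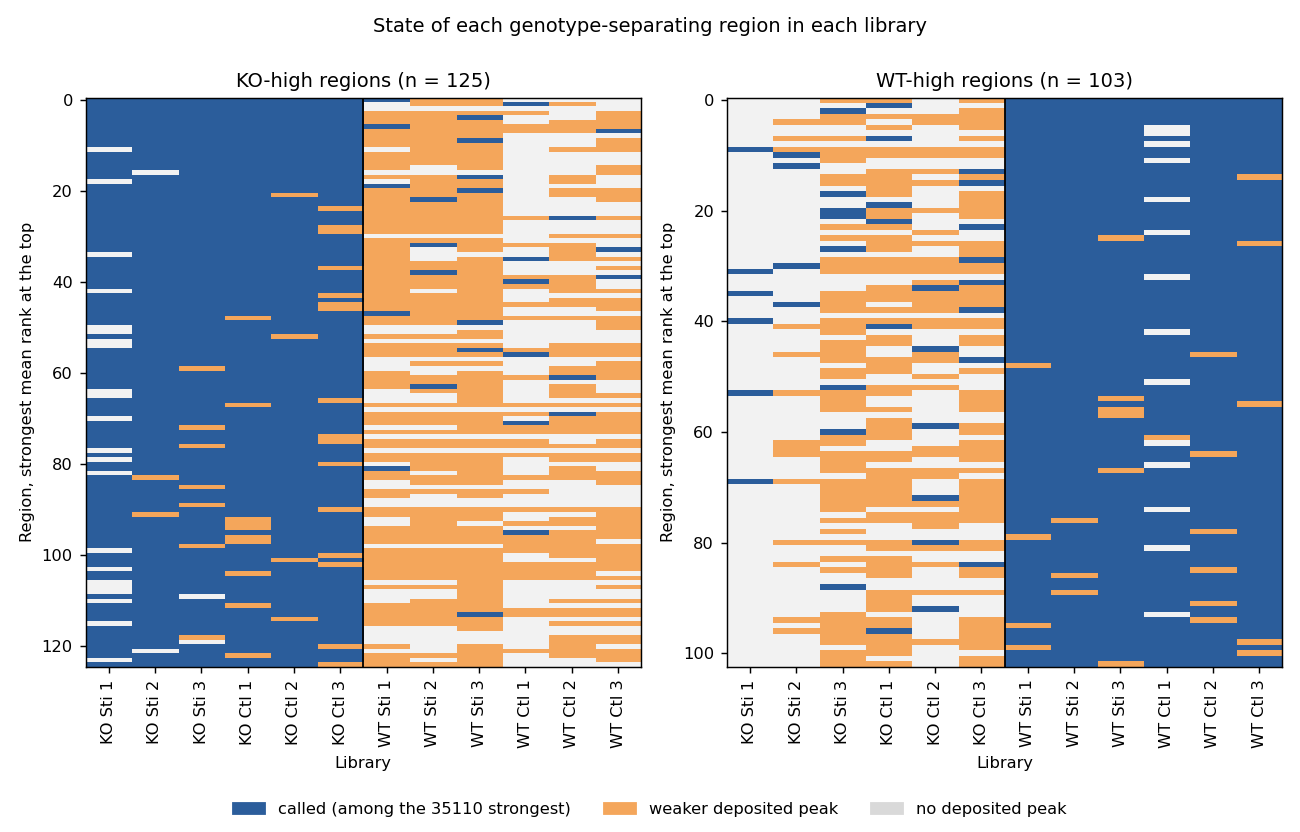
Heat maps of the KO-high regions (n = 125, left) and the WT-high regions (n = 103, right), with a row per region from the strongest mean rank down and a column per library, coloured blue where the region was called, orange where it held a weaker deposited peak and pale grey where it held none. WT_Sti libraries hold a peak of some strength at 89, 89 and 106 KO-high regions and WT_Ctl libraries at 39, 65 and 71.

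Weaker deposited peaks filled much of the contrast on the KO-high side, as the heat maps of calls and weaker peaks show. Of the 722 pairs of a KO-high region and a WT library without a call, 59.7% held a deposited peak below the reduced list, with a median rank of 42553 where 1 is the strongest. Of the 580 pairs of a WT-high region and a KO library without a call, 39.7% held one, with a median rank of 39820. These peaks were often close to the limit of the list: 31.1% on the KO-high side and 51.3% on the WT-high side ranked 40000 or stronger. KO_Sti replicate 1 has no peaks beyond its reduced list, so it could show none of these.

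Complete absence was rare. No WT library held a deposited peak of any strength at 10 KO-high regions, and no KO library held one at 9 WT-high regions. Conversely, all 6 WT libraries held a peak at 25 KO-high regions, and all 6 KO libraries held one at 1 WT-high region, Irak2. The list of KO_Sti replicate 1 ends with its kept intervals, and it held a peak at only 6 of the 103 WT-high regions. That library capped the KO count in advance, so the counts of 25 and 1 do not compare the genotypes.

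The weaker WT peaks in KO-high regions sat mostly in stimulated cells. At 22 KO-high regions all 3 WT_Sti libraries held a deposited peak and no WT_Ctl library did, against 1 region with the opposite pattern. At 7 WT-high regions no KO_Sti library and all 3 KO_Ctl libraries held a peak, against 0 with the opposite pattern. WT_Sti had the 3 longest lists. KO_Sti replicates 1 and 2 had shorter lists than every KO_Ctl library, but KO_Sti replicate 3 (54303) had a longer one. List length thus moves with the first pattern and only in part with the second, and its part was not tested. A peak ranked beyond the end of a list cannot appear in that list, which also holds for the single regions below.

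**Figure D3:**
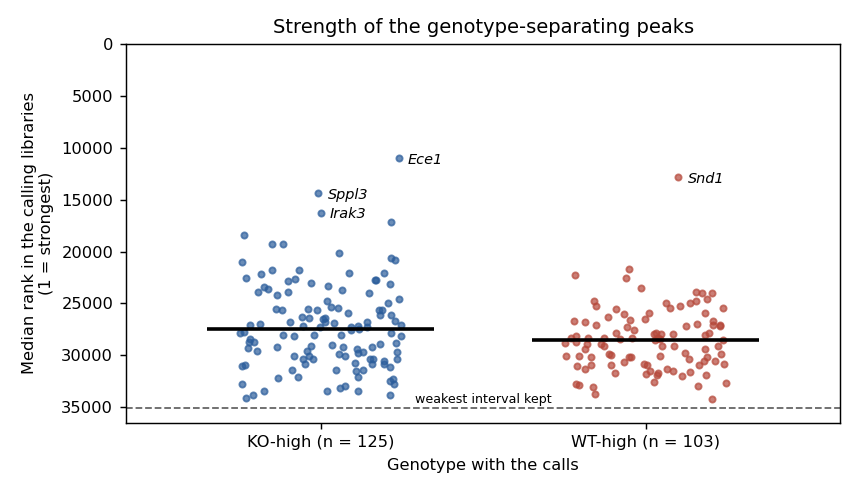
Median rank (1 = strongest, axis inverted) of each member over the libraries of the favoured genotype that called it, with KO-high regions (n = 125) left of WT-high regions (n = 103), black bars for the medians and a dashed line at the weakest interval kept. Most members lie in the weaker part of the lists, and Ece1, Sppl3, Irak3 and Snd1 stand above the rest.

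Members were weak peaks for the most part. Over all libraries with a call, the median rank of a region had a median of 27803 among KO-high and 28963 among WT-high regions, against 23799 among all regions. A rank of 20000 or stronger was held by 5.6% of KO-high regions (7 of 125, Wilson 95% interval 2.74 to 11.1%) and by 0.971% of WT-high regions (1 of 103, 0.172 to 5.3%), against 40.1% of all regions. Regions at a difference of 4 had medians of 30097 (higher in KO) and 29597.5 (higher in WT). The 7716 regions called in 5 to 7 of the 12 libraries that were not members had a median of 27272.75, close to that of the members.

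Gene starts were rarer inside members than inside regions at large, by share, and the other positions of KO-high regions were close to the average. A gene start lay inside 8.13% of KO-high regions (10 of 123 outside chromosome 18, for which start sites were not used here) and inside 2.94% of WT-high regions (3 of 102), against 20.1% of all regions and 4.78% of non-members called in 5 to 7 libraries. The 3 WT-high starts belonged to the predicted genes Gm32051, Gm29854 and Gm35290. KO-high regions overlapped the body of a protein-coding gene in 63.2% of cases (79 regions) and WT-high regions in 50.5% (52 regions), against 65.3% of all regions. Within 50 kb of a protein-coding gene lay 91.2% of KO-high and 81.6% of WT-high regions, against 91.0% of all. Exons and introns are not given in the annotation used here.

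Neither direction was broader than the average region, but KO-high regions were broader than non-members called in 5 to 7 libraries. The median width was 955 bp for KO-high, 760 bp for WT-high and 1072 bp for all regions. Wider than 2000 bp were 16 KO-high regions (12.8%) but 2 WT-high regions (1.94%), against 17.5% of all regions. Among non-members called in 5 to 7 libraries the median was 866 bp, and 3.29% were wider than 2000 bp. At a difference of 4 in favour of KO, 5.2% were. In 5 of the 16 broad KO-high regions the nearest protein-coding gene was a predicted Gm gene, as it was for 116 of the 9068 broad regions overall. The widest, 28946 bp near Apba2, is longer than a usual ATAC-seq peak. Over all KO-high regions 5.6% had a Gm gene nearest, against 2.91% of WT-high and 1.47% of all regions. Near Gm21190, 2 KO-high regions lay 16809 bp apart. Gene families with many near-identical copies share reads between copies, and the placing of such reads is not known here.

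By chromosome, the highest KO-high shares were on Y, with 1 of 23 regions (4.35%), and X, with 6 of 844 (0.711%), and the lowest on chromosome 17, with 0 of 2395. The highest WT-high shares were on chromosome 13, with 10 of 2358 regions (0.424%), and chromosome 6, with 11 of 2810 (0.391%). These are small counts given as they stand. There were 678 pairs of a KO-high region and a non-member within 50 kb of it. In 41.4% of these pairs the non-member also had more KO calls, where 21.8% of all non-members did. Around WT-high regions the non-member had more WT calls in 31.8% of 503 such pairs, where 25.2% of all non-members did. A non-member near 2 members enters the pairs 2 times, whereas the shares of all non-members count each region 1 time. Neighbours come from the same 12 lists and are not independent of the members. All 6 pairs of members within 50 kb of each other went the same way: Gm21190 and Irak3 in KO, and Add2, Babam2, Gm12185 and a pair on chromosome 9 without a protein-coding gene in WT.

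The strongest complete separation in KO lay in Irak3, which encodes IRAK-M, an inactive kinase of the MyD88 pathway that limits signalling from Toll-like and IL-1 family receptors. The region at 10:120190562-120192471 lies inside the gene, 9659 bp from its start (Irak3 runs from 10:120141648 to 10:120202130 on the minus strand). Its ranks were 7478, 13581 and 9168 in KO_Sti and 18984, 22129 and 20525 in KO_Ctl, and no WT_Sti or WT_Ctl library held any deposited peak there. The authors' folds over background were 9.6 to 29.7 in the 6 KO libraries. Every stimulated KO rank was stronger than every control KO rank.

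A second KO-high region in Irak3 began 489 bp away, at 10:120187933-120190072. It ranked 16878, 19777 and 15199 in KO_Sti and 21791, 23701 and 26792 in KO_Ctl, against 34481, 38925 and 39806 in WT_Sti and 42091, 42000 and 47999 in WT_Ctl. There the WT cells did hold peaks, all weaker than every KO peak, and those of WT_Sti were stronger than those of WT_Ctl. On the other side, the region at 10:120192667-120194131 was called in 6 KO and 5 WT libraries, and the region over the gene's start in 6 and 6. Across the 11 regions assigned to Irak3, 10 had more KO than WT calls, 0 had more WT calls, and the calls summed to 43 in KO and 20 in WT.

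**Figure D4:**
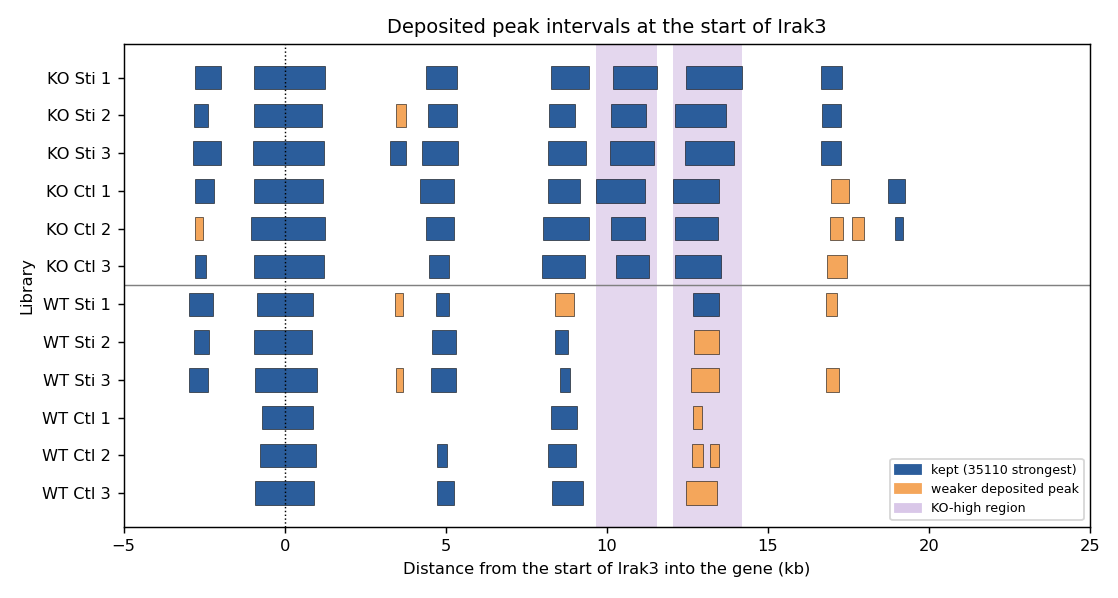
Deposited peak intervals around the first part of Irak3 in the 12 libraries, by distance in kb from the start of the gene into its body, with KO libraries above WT libraries. The shaded band nearer to the start (from 9659 bp into the gene) holds a kept interval in 6 of 6 KO libraries and no interval in any WT library.

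The map of intervals along Irak3 shows intervals at the start of the gene kept in every library, and KO-high regions in the 2 shaded bands. Farther in, 16651 bp from the start, an interval was kept in 3 of 3 KO_Sti libraries and in no other. Irak2, a kinase that carries the signal in the same pathway, held a WT-high region at 6:113690486-113691551. It ranked 27236, 37612 and 35254 in KO_Sti and 41134, 39421 and 35191 in KO_Ctl, against 23281, 26091 and 23916 in WT_Sti and 22567, 26026 and 26601 in WT_Ctl. Both genotypes thus held a peak in every library, with each KO rank weaker than each WT rank, and 8 of the 11 regions of Irak2 were called in all 12 libraries. These 3 regions were the members among the 148 regions of 26 NF-kB pathway genes.

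Single KO-high regions lay at a receptor gene for IL-12 and at an AP-1 family gene. Il12rb2 encodes the signalling chain of the IL-12 receptor, and its member lies 19135 bp from the gene, at 6:67395428-67396433. The ranks were 24219, 34116 and 30085 in KO_Sti and 26192, 33747 and 25904 in KO_Ctl. WT_Sti held peaks at ranks 50503 and 44937 in 2 libraries and WT_Ctl held none. Stimulation did not separate the KO ranks, which overlapped between treatments. It was the only member among 189 regions of 31 cytokine receptor and JAK-STAT genes.

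Batf encodes an AP-1 family factor induced by cytokines in lymphocytes. Its KO-high region, 12509 bp from the gene at 12:85673442-85674211, ranked 31640 and 34484 in KO_Sti, with no peak in replicate 3, and 29580, 28864 and 29707 in KO_Ctl. WT_Sti held 1 peak, at rank 51040, and WT_Ctl held none. The KO_Ctl ranks were stronger than both KO_Sti ranks. Bach1, a repressor that binds AP-1-like elements, held a WT-high region inside the gene at 16:87716190-87716903, with 1 KO peak at rank 36560 in KO_Sti, against 24125, 23515 and 22603 in WT_Sti and 33326 and 21132 in 2 WT_Ctl libraries. The list of AP-1 and OCT factors had these 2 members among 120 regions.

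The start of Ptgs2, printed above and reported elsewhere as a target transcript of Regnase-1, ranked 18642, 25436 and 21396 in KO_Sti and 34995, 29722 and 37293 in KO_Ctl. In WT cells the ranks were 40849, 43770 and 40836 in WT_Sti, and 1 WT_Ctl library held a peak, at 52415. In KO cells each stimulated rank was stronger than each control rank, and the KO_Ctl ranks lay between those of KO_Sti and WT_Sti. In WT cells each WT_Sti peak was stronger than the 1 WT_Ctl peak. The lists of WT_Ctl replicates 1 and 2 end at 42520 and 48324, so a peak that weak could not appear in them. Of the 129 regions of RNA decay genes and reported Regnase-1 targets, this was the only member.

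Tnfrsf13b, by contrast, had no deposited peak at its start in any WT library. The KO ranks were 31508, 31416 and 37215 in KO_Sti and 32794, 24992 and 24913 in KO_Ctl, so the peak was weak and was no stronger in stimulated cells. Bhlha15 had peaks in all 12 libraries, at 28971, 27850 and 29404 in KO_Sti, 30828, 28633 and 38371 in KO_Ctl, 42208, 47985 and 46677 in WT_Sti and 40824, 39288 and 42849 in WT_Ctl. Every KO rank was stronger than every WT rank, and KO_Ctl replicate 3 fell outside the reduced list. Bhlha15, Ece1, Sppl3 and Bnip3 fell outside the rule for named genes and were chosen after their values were seen.

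Bcl2, the founding anti-apoptotic gene of its family, held a KO-high region inside the gene at 1:106569000-106570847. The ranks were 12860, 24151 and 21392 in KO_Sti and 31406, 27848 and 25795 in KO_Ctl. WT_Sti held weaker peaks at 35530, 46679 and 41569, and WT_Ctl held none. Of the 25 regions assigned to Bcl2, 9 were called in all 12 libraries and this 1 was a member.

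The 2 strongest KO-high members lay at genes without a textbook place in NK cells. A region inside Ece1, which encodes endothelin-converting enzyme, ranked 5857, 10542 and 9624 in KO_Sti and 14968, 11475 and 13716 in KO_Ctl, against 31584, 37103 and 39554 in WT_Sti and no peak in WT_Ctl. A region inside Sppl3, an intramembrane protease of the Golgi, ranked 13890, 14857 and 18747 in KO_Sti and 14979, 13669 and 13833 in KO_Ctl. WT_Sti held weaker peaks there at 37894 and 44074. WT_Ctl held 1 call, at 33077, and a weaker peak at 38536. These 2 were the KO-high members that still met the rule when lists were cut at 50% of their length.

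Among regions called in 6 KO and 0 WT libraries, Serp1 (a stress-associated protein of the endoplasmic reticulum), Piwil4 (a germline Piwi protein), Myo1e (a membrane-linked myosin) and Ppfibp2 (a liprin) were among the 12 strongest by mean rank. The Serp1 region, 3297 bp from the gene, ranked 11090, 16094 and 17395 in KO_Sti and 20278, 19451 and 19522 in KO_Ctl, against 44207, 52177 and 48508 in WT_Sti and 40648 and 47543 in 2 WT_Ctl libraries. The Piwil4 region ranked 11878 to 20625 in KO_Sti and 17921 to 22856 in KO_Ctl, against 38058 to 41293 in WT_Sti and 42743 and 49985 in 2 WT_Ctl libraries. In both, every KO peak was stronger than every WT peak. The Myo1e and Ppfibp2 regions held weaker peaks in 3 of 3 WT_Sti and 0 of 3 WT_Ctl libraries, with ranks of 40525 to 42447 and 49293 to 52449 in WT_Sti. The WT_Ctl lists end at 42520, 48324 and 53440, so only replicate 3 could hold a peak as weak as those of Ppfibp2. The part of list length was not tested.

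KO-high regions without any WT peak, beside Irak3 and Tnfrsf13b, lay in Phtf2, Hydin (a protein of motile cilia), Afap1 (an actin-binding protein), Siae (a sialic acid esterase), Jade2 (a subunit of a histone acetyltransferase complex) and Ttc28, and at 2 places more than 50 kb from any protein-coding gene. The Phtf2 ranks were 25511, 26305 and 24148 in KO_Sti and 29268, 27998 and 32300 in KO_Ctl. Those of Hydin were 20883, 25747 and 27357 in KO_Sti and 32662, 26365 and 29100 in KO_Ctl. Outside Irak3 these were middling to weak KO peaks, none stronger than rank 20000.

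On the WT side 1 region stood far above the rest. Snd1 encodes an RNA-binding nuclease of the Tudor-SN type, and its WT-high region lies inside the gene at 6:28927748-28930037. KO_Sti held 1 peak, at rank 41925, and KO_Ctl held 2, at 45482 and 38382. The ranks were 8201, 15489 and 16617 in WT_Sti and 3831, 12586 and 13133 in WT_Ctl. Every KO peak was weaker than every WT peak. It was the only WT-high member that met the rule at 50% of the list length.

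Among genes of adhesion, Itgb2 held a WT-high region. It encodes the beta chain of the leukocyte integrins, and the region 653 bp from the gene (10:77566361-77567123) held no peak in any KO library. In WT cells it ranked 32409, 28886 and 31851 in WT_Sti and 22329 and 28494 in 2 WT_Ctl libraries.

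Among lineage factors, Ets1, which NK cells need for their development, and Ebf1, a B cell factor, held 1 WT-high region each, both inside the gene. The Ets1 region ranked 27458 and 35368 in 2 KO_Sti libraries and 44188, 38514 and 36870 in KO_Ctl, against 24347, 26489 and 26848 in WT_Sti and 28978, 31906 and 30137 in WT_Ctl. The KO_Sti replicate 1 value lay within the WT range. The Ebf1 region ranked 38133 in 1 KO_Sti library and 35561, 37647 and 48699 in KO_Ctl, against 23049, 26901 and 24865 in WT_Sti and 19397, 21207 and 25033 in WT_Ctl. All Ebf1 ranks of WT cells were stronger than those of KO cells. Of the 4 B cell markers examined, 2 had a call in all 12 libraries and 2 in none.

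WT-high regions without any KO peak, beside Itgb2 and the Gm32051 start (5809 bp from Lrrc8b, a volume-regulated channel subunit), lay at Smim15, Zmat4, Map4k4 (a stress-activated kinase), Csgalnact1 (a chondroitin sulfate synthesis enzyme), Anks6 and Rasa2 (a Ras GTPase-activating protein), and 404008 bp from the nearest protein-coding gene on chromosome 1. The Smim15 ranks were 30096, 31384 and 31150 in WT_Sti and 23206, 28028 and 23906 in WT_Ctl, and those of Zmat4 33016, 32251 and 29613 in WT_Sti and 29650, 33057 and 28433 in WT_Ctl. As in KO outside Irak3, the absent peaks of one genotype were mostly weak peaks of the other.

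Counted by function, the 17 gene lists took in 1903 regions, of which 0.631% were members, 6 KO-high and 6 WT-high, against 0.441% of all regions. The median difference in calls was 0 over the listed regions and 0 over all. No member fell among 127 regions of cytokine and chemokine genes, 66 of cytotoxic granule genes, 152 of NK receptor genes, 94 of checkpoint genes or 110 of TGF-beta and stress genes. Bcl2 was the 1 member among 222 regions of growth and metabolism genes and Ets1 the 1 among 349 regions of NK transcription factors. The B cell list had 1 member, at Ebf1, among 19 regions (5.26%), and the T cell, myeloid, erythroid and ubiquitous gene lists had 0.

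Stimulation, which the rule did not use, was tested on the ranks within each genotype. The measure was −log2 of the rank, stimulated minus control, so that a shift of 1 means a rank number 2 times smaller. It was fitted with limma over every region called in all 6 libraries of the genotype, with Benjamini-Hochberg adjustment at 0.05. Only members called in all 6 libraries could enter, and ranks end at the limit of the list, which bounds the shift of weak peaks.

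Among KO-high regions in KO cells, 60 of 125 were tested. With stimulation 7 rose in rank and 0 fell, against 9.82% rising and 8.24% falling among all 22597 regions tested. At an unadjusted limma p under 0.05, 19 of the 60 were higher and 1 was lower, against 3480 and 3872 of the 22597. With the replicate number as a block, 11 rose and 0 fell, against 10.3% and 8.24% of all regions tested. The median shift of the 60 was 0.29, with 45 positive, against −0.09 over all regions tested. Without KO_Sti replicate 1 the members' counts were 19 higher and 3 lower, against 16.6% and 19% of all regions. Without KO_Ctl replicates 1, 2 and 3 in turn, 4, 2 and 3 members were higher, against 4.89%, 4.26% and 4.7% of all regions. In each case 0 members were lower, against 3.12%, 2.77% and 2.98% of all regions. Replacing rank by its share of the list gave 8 higher and 0 lower, against 10.1% and 6.71% of all regions.

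The largest of these shifts was that of the Irak3 region without WT peaks, 1.07 (SE 0.22, limma adjusted p = 0.0107), on the ranks given above. Leaving out KO_Ctl replicate 2 raised its limma adjusted p to 0.064. Ntng2 encodes the membrane-anchored adhesion protein netrin G2, and its region lies inside the gene, 90 bp from the start. It ranked 15323, 15285 and 15611 in KO_Sti and 35031, 25655 and 28894 in KO_Ctl, a shift of 0.94 (limma adjusted p = 0.00341). Its weaker WT peaks appeared in WT_Sti, at 43022, 44775 and 43150, and not in WT_Ctl. The list of WT_Ctl replicate 1 ends at 42520, before these ranks.

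Trps1, a GATA-type repressor, shifted by 0.89 (SE 0.17, limma adjusted p = 0.0083) on ranks of 12753, 17130 and 18645 in KO_Sti and 26444, 32537 and 30316 in KO_Ctl. Alpk2, an alpha-type kinase, shifted by 0.72 (SE 0.12, limma adjusted p = 0.00543). Smaller shifts passed at Rhoh (0.57), a GTPase of blood cells, at Cd40lg (0.55), the ligand of CD40, and at Bnip3 (0.52), a mitophagy receptor. Ntng2 and Alpk2 stayed past the threshold under all 9 alternatives that could test them and Trps1 under 8. Irak3 held under 7, Cd40lg under 6, and Rhoh and Bnip3 under 5. Ranking by fold is among the 9 and repeats the main fit, so it could not differ. The Bcl2 shift was 0.59 with a limma adjusted p of 0.106, and that of Il12rb2 was −0.04.

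Among WT-high regions in WT cells, 64 of 103 were tested. With stimulation 5 rose in rank and 8 fell, against 18.9% rising and 28.8% falling among all 24410 regions tested. The median shift of the 64 was −0.05, with 27 positive, against −0.12 over all regions tested. With the replicate number as a block the counts were 5 higher and 11 lower, against 20% and 31.1% of all regions tested. Leaving out 1 WT library at a time gave 1 to 7 higher and 5 to 10 lower. Of all regions tested, 16.6 to 20% were then higher and 23.3 to 31.6% lower. The fewest member rises came without WT_Sti replicate 1 and the fewest falls without WT_Sti replicate 2 or WT_Ctl replicate 1. Without WT_Ctl replicate 2 or 3, 2 rose, and without WT_Sti replicate 3, 3 rose.

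Arsb, a lysosomal sulfatase, had the largest fall, −0.69 (SE 0.13, limma adjusted p = 0.000622), on ranks of 28052, 32402 and 31148 in WT_Sti and 15107, 19823 and 22439 in WT_Ctl. Adamts18, a secreted metalloprotease, shifted by −0.59, Pgr, the progesterone receptor, by −0.53, Macroh2a1, a histone variant, by −0.52, and Eya2, a phosphatase and transcriptional coactivator, by −0.47. These 5 stayed past the threshold under all 9 alternatives, of which ranking by fold repeats the main fit. The largest rise, 0.64 (SE 0.11, limma adjusted p = 0.00015), was at 15:60110932-60112179, where no protein-coding gene lies within 50 kb. It ranked 17675, 16967 and 19181 in WT_Sti and 29184, 29391 and 25414 in WT_Ctl. Nek6, a mitotic kinase, and Paqr5, a membrane progesterone receptor, shifted by 0.35 and 0.36, each with an adjusted p over 0.05 under some of the alternatives. The Snd1 shift of −0.58 did not pass the adjustment.

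**Figure D5:**
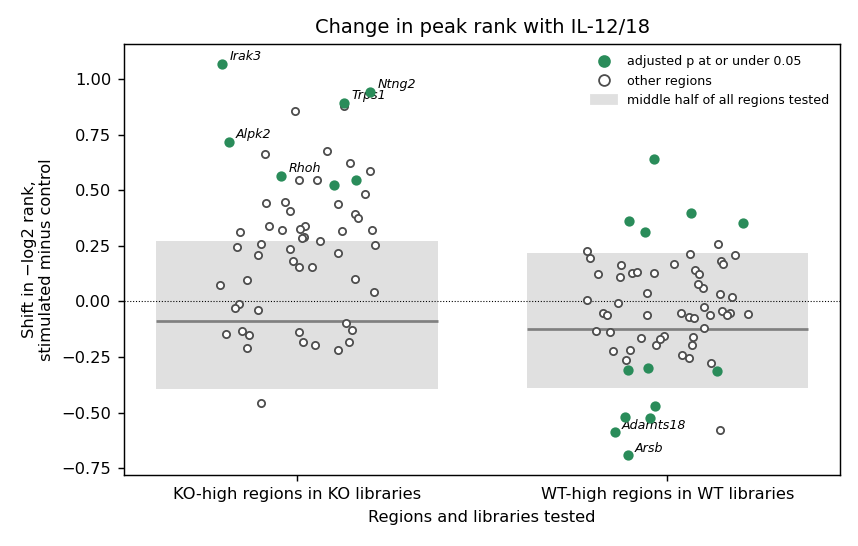
Shift in −log2 rank with IL-12/18, stimulated minus control, for KO-high regions in KO libraries (60 tested) and WT-high regions in WT libraries (64 tested), with filled points at a limma adjusted p at or under 0.05 and a grey band for the interquartile range over all regions tested. In KO the 7 filled points are all above 0, led by Irak3 at 1.07, and in WT 5 lie above and 8 below.

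The plot of rank shifts shows KO-high regions mostly above the band's centre and WT-high regions spread about it. The difference between the 2 sets of shifts was not tested, since the sets were chosen by genotype and fitted in different libraries.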

How the data were processed

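ATAC-seq peak lists of 12 libraries were used, 1 per library, on mm10. The submitters' processing notes name MACS2 2.1.1.20160309, deepTools 3.4.2, SAMtools 1.15.1, Bowtie2 2.3.4.1, cutadapt 4.1 and FastQC 0.11.9. Tool settings and any shift of reads for the transposase cut are not given in the sources used here. The fold deposited by the authors is a ratio of a peak's pileup to its own library's background. The authors' −log10 p and −log10 q values likewise belong to 1 peak in 1 library. They were used to rank peaks within a list, and folds quoted in the report describe each library on its own scale. Ranking by fold or by −log10 q gave the same order in all 12 lists. Read depth is unknown from peak lists, so no counting error is given. Wilson 95% intervals treat regions as independent.

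Summits of 1 interval were taken as 1 interval with the strongest value. Lists were cut, merged and called as the report's opening states. Each region was given the closest protein-coding gene within 50 kb, and start sites are those of GRCm38.p6 in RefSeq. The members and the gene lists were chosen with earlier results of these data known. Named are members with complete separation (at most 12 per direction by mean rank), on a gene list, within 1 Mb of Zc3h12a, without a peak in the other genotype (at most 12), past the rank shift test (at most 6 per direction), or at a gene with 2 members. Some named items are not reported here. Rank shifts were fitted with limma 3.58.1 in R 4.3.3 with a trended prior, and the fit was tested on simulated data. Simulated shifts of 1 were recovered in 23.5% of cases in KO and 75% in WT. Shifts of that size were thus mostly missed in the simulated KO ranks. In the simulation 68 regions per genotype carried a shift of 1. In the KO data 2219 regions passed as higher and 1861 as lower. With fewer changed regions the adjustment is stricter, so the simulated shares do not give the share missed in the data. Simulated recovery differed between KO and WT, so counts passing in the 2 genotypes are not on a like footing. Groups and replicate numbers come from the sample titles. In KO, the deviations of same-numbered libraries from the group means had correlations of 0.199, 0.174 and 0.158. No correlation was computed for differently numbered libraries, so whether the numbers pair the libraries is not known. The blocked count therefore stands beside the result of each genotype. Alternatives covered list length, ranking column, overlap, merging, thresholds, the block and left-out libraries.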

Additional observations from a re-analysis of the deposited data

How the results depend on the processing

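The number of members depended on where the lists ended. With all deposited intervals, 65 regions were KO-high and 238 WT-high, and with lists cut at 50% of the length, 49 and 59. Of the 125 and 103 members, 12 and 21 met the rule in the full lists and 2 and 1 in the shorter ones. In the full lists 2 KO-high members had more WT than KO calls, and 0 WT-high members had the opposite difference. Requiring a call to cover 50% of the region gave 84 KO-high and 313 WT-high regions and kept 62 and 71 members. Complete separation gave 32 and 26 regions, and a difference of 4 or more gave 375 and 358. Without KO_Sti replicate 1 and with 42520 intervals per library, a setting chosen after seeing the data, the counts were 259 and 176, with 50 and 39 members kept. Leaving out 1 library, with a share difference of at least 0.8, gave 142 to 193 KO-high and 131 to 170 WT-high regions. That threshold is looser by construction. The KO-high count moved by over 1.5 times without KO_Sti replicate 1 (193) and KO_Ctl replicate 1 (188), and the WT-high count without KO_Sti replicate 3 (164), KO_Ctl replicate 3 (170) and WT_Ctl replicate 1 (159). Ranking by fold gave the same lists, so its counts and members could not differ. Summit windows of 250 bp and merging within 200 bp left both counts within 1.5 times. They kept 125 and 123 KO-high members and, each time, 103 WT-high members. A summit window lies on its own kept interval, so it keeps that interval's calls at the members by construction.

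For the rank shift over all regions, lists cut at 50% gave 510 higher and 310 lower in KO and 1965 and 2775 in WT. With 1 library left out, KO gave 963 to 3745 higher and 627 to 4297 lower, and WT gave 4044 to 4880 higher and 5698 to 7705 lower. In KO the high ends came without KO_Sti replicate 1 and the low ends without KO_Ctl replicate 2. The cause was not tested. With the replicate block, KO gave 2332 higher and 1861 lower, and WT gave 4894 and 7594. In WT, same-numbered libraries had correlations of 0.177, 0.057 and 0.189, and as in KO these do not settle whether the numbers pair the libraries. Read depth, which peak lists do not give, limits how far a missing peak can be read as closed chromatin.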
